A study of Homo sapiens with 208 samples.

Results

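The genes described here are a fixed list of 40 human genes made up of the cytosolic aminoacyl-tRNA synthetases and of transcription factors, enzymes and transporters known as targets of the transcription factor ATF4, with ATF4 itself. They were found on the arrays through the RefSeq accession of each probe. Of the 40 genes, 37 had a matched probe (53 probes, 14 genes with more than 1), and all 37 passed the filter on dim genes that left 13263 of 16961 genes for testing. CARS1, MTHFD2 and SLC3A2 had no matched probe and are not analysed here. By role, the 37 genes were 18 of 19 listed synthetases, 8 of 8 transcription factors and regulators, 5 of 6 enzymes of amino acid and one-carbon synthesis, 5 of 6 amino acid transporters, and the lipoprotein receptor VLDLR. The matching by accession uses no measured value. For the 14 genes with more than 1 probe, the most variable probe was used, so that choice depends on the measured values.

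An aminoacyl-tRNA synthetase joins an amino acid to its transfer RNA, the step that prepares the amino acid for the ribosome. When uncharged transfer RNA, misfolded protein, viral RNA or lack of haem activates a kinase of the initiation factor eIF2, general translation falls while the ATF4 messenger is translated more, and ATF4 then raises the transcription of synthetases, of enzymes that make serine, glycine and asparagine, and of amino acid transporters. ATF4 is controlled to a large part at translation, so its messenger level is not its protein level. In lung adenocarcinoma cells with a mutant EGF receptor, the receptor's signal drives growth and with it the demand for amino acids.

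The samples were cultures of 2 human lung adenocarcinoma cell lines. PC9 carries a deletion in the kinase domain of the EGF receptor and is sensitive to gefitinib, an inhibitor of that kinase. PC9M2, labelled PC9GRM2 in the deposited records, is a resistant line, No. 2 of several, which was derived from PC9 by months of culture with a low amount of gefitinib and was found to lack MET amplification and the known secondary receptor mutation. Both lines were starved for 48 h and then left without treatment (no gefitinib, no EGF, no serum), given 0.5 µM gefitinib, given 100 ng/ml EGF, or given both, with gefitinib added ahead of EGF, so that the culture taken at 0 h already held the drug. Each of the 8 courses had 26 time points from 0 to 24 h with 1 one-colour array each, 208 arrays in all, so the time points stood in for replicates and nothing states that any culture was repeated. PC9M2 is 1 line refined from surviving clones, and p-values measure the spread of the differences between time points and not between independent cultures. In a culture, more cells in a state and more RNA per cell cannot be told apart.

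All arrays of PC9 were scanned on 8 days and all arrays of PC9M2 on 9 other days, with no slide or day shared, so the line and the scan period cannot be told apart. Within a line, the 4 treatments of a time point shared a slide. Between 24464 and 35938 features were well above background per array, and 183 to 1616 features were saturated on PC9 arrays and 0 on PC9M2 arrays. Of the markers checked, the epithelial genes EPCAM, KRT8, KRT18, KRT19 and CDH1 were above background on all 208 arrays and NAPSA on 207, while NKX2-1, a defining factor of lung adenocarcinoma, was above background on 13. PTPRC, LUM and COL1A2 were above background on 1, 2 and 9 arrays, DCN and CDH5 on 31 and 34, CD3E on 84, PECAM1 on 207, and CD14 and VWF on 208. The samples were cultures of cell lines, and the source of these signals was not tested. Compared with the mean of its neighbours in time, an array differed over genes with an SD of 0.401 on the log2 scale at the median. The untreated PC9M2 array at 11 h (1.03) and the PC9 arrays at 14 to 18 h stood furthest apart, and counts without these time points are given where they matter.

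The promoter sequences that carry the known binding element of ATF4 are shown first because they say which members hold it close to their start. ATF4 binds, as a dimer with a C/EBP protein, an element with the core TGATGNAA (TTNCATCA on the other strand). RefSeq promoter windows of assembly GRCh38.p14 were found for 34 of the 40 genes and were searched on both strands over the 250 bases before the start. The core was present in 7 of these 34 genes (20.6%), against 3.14% of all 35116 windows and 3.89% of 27305 genes. These stretches lie at chr16:70289675-70289704 for AARS1 (187 bases before its start), chr7:30594834-30594863 for GARS1 (33 bases before the second listed start), chr9:92293698-92293721 for IARS1 (13 bases, shortened at the start), chr1:212565205-212565234 for ATF3 (191 bases), chr15:40953251-40953280 for CHAC1 (209 bases), chr7:97872458-97872487 for ASNS (68 bases) and chr19:46784893-46784922 for SLC1A5 (97 bases before the third listed start). Each is printed along the strand of its gene, with the core in capitals:
AARS1: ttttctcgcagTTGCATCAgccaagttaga
GARS1: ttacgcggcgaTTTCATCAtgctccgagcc
IARS1: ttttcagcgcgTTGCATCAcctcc
ATF3: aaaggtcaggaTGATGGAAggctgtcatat
CHAC1: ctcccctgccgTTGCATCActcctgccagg
ASNS: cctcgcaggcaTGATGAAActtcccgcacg
SLC1A5: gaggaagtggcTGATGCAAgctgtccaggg

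A cyclic AMP response element (TGACGTCA, the same on both strands) was found in the window of PPP1R15A alone among the members (2.94% of 34, against 1.65% of windows and 2.03% of genes), and an E-box (CACGTG, the same on both strands) in those of IARS1, ATF4, SLC7A5 and SLC1A5 (11.8%, against 6.34% of windows and 7.73% of genes). An endoplasmic reticulum stress element (both strands) was found in 0 of the 34 members' windows, against 0.074% of windows and 0.0916% of genes. The element of PPP1R15A lies at chr19:48872352-48872381, 58 bases before the start, and the E-box of ATF4 at chr22:39520466-39520493, 82 bases before the start. They are printed because these 2 regulators differed in direction under gefitinib in PC9:
PPP1R15A: gcctctcttcgTGACGTCAgcacgccgggc
ATF4: gaggagacggtCACGTGgtcgcggcgga
A match is a description of letters and was not tested as a binding site.

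With gefitinib alone most members that changed fell in both lines, while ATF4 itself was higher over the course in PC9 and early in the course in PC9M2. In PC9, 25 of the 37 genes passed the test for gefitinib against no treatment (5 higher, 20 lower), where 72.3% of all tested genes did (35.1% higher, 37.2% lower). In PC9M2, 26 passed (5 higher, 21 lower), where 66.7% of all genes did (32.6% higher, 34.2% lower). The share of members called was near that of all genes in both lines, with most of the members' calls on the lower side. The median log2 difference of the members was -0.28 in PC9 and -0.24 in PC9M2, against -0.02 and -0.01 over all genes. Both lines shared 16 genes that fell (GARS1, HARS1, IARS1, KARS1, LARS1, TARS1, VARS1, FARSA, FARSB, TRIB3, CHAC1, PSAT1, SESN2, SLC7A11, SLC7A5 and SLC7A1), where 28.8% of all genes fell in both, and 4 that rose (QARS1, ATF4, SLC38A2 and VLDLR), where 27.4% of all genes rose in both. No member was called in opposite directions, which 1.25% of all genes were. The test was limma's moderated test on the differences at matched time points, with Benjamini-Hochberg adjustment over 13263 genes at 0.05. Without the time points at 14 to 18 h the PC9 count was again 25, and without 11 h the PC9M2 count was 29 (5 higher, 24 lower).

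**Figure D1:**
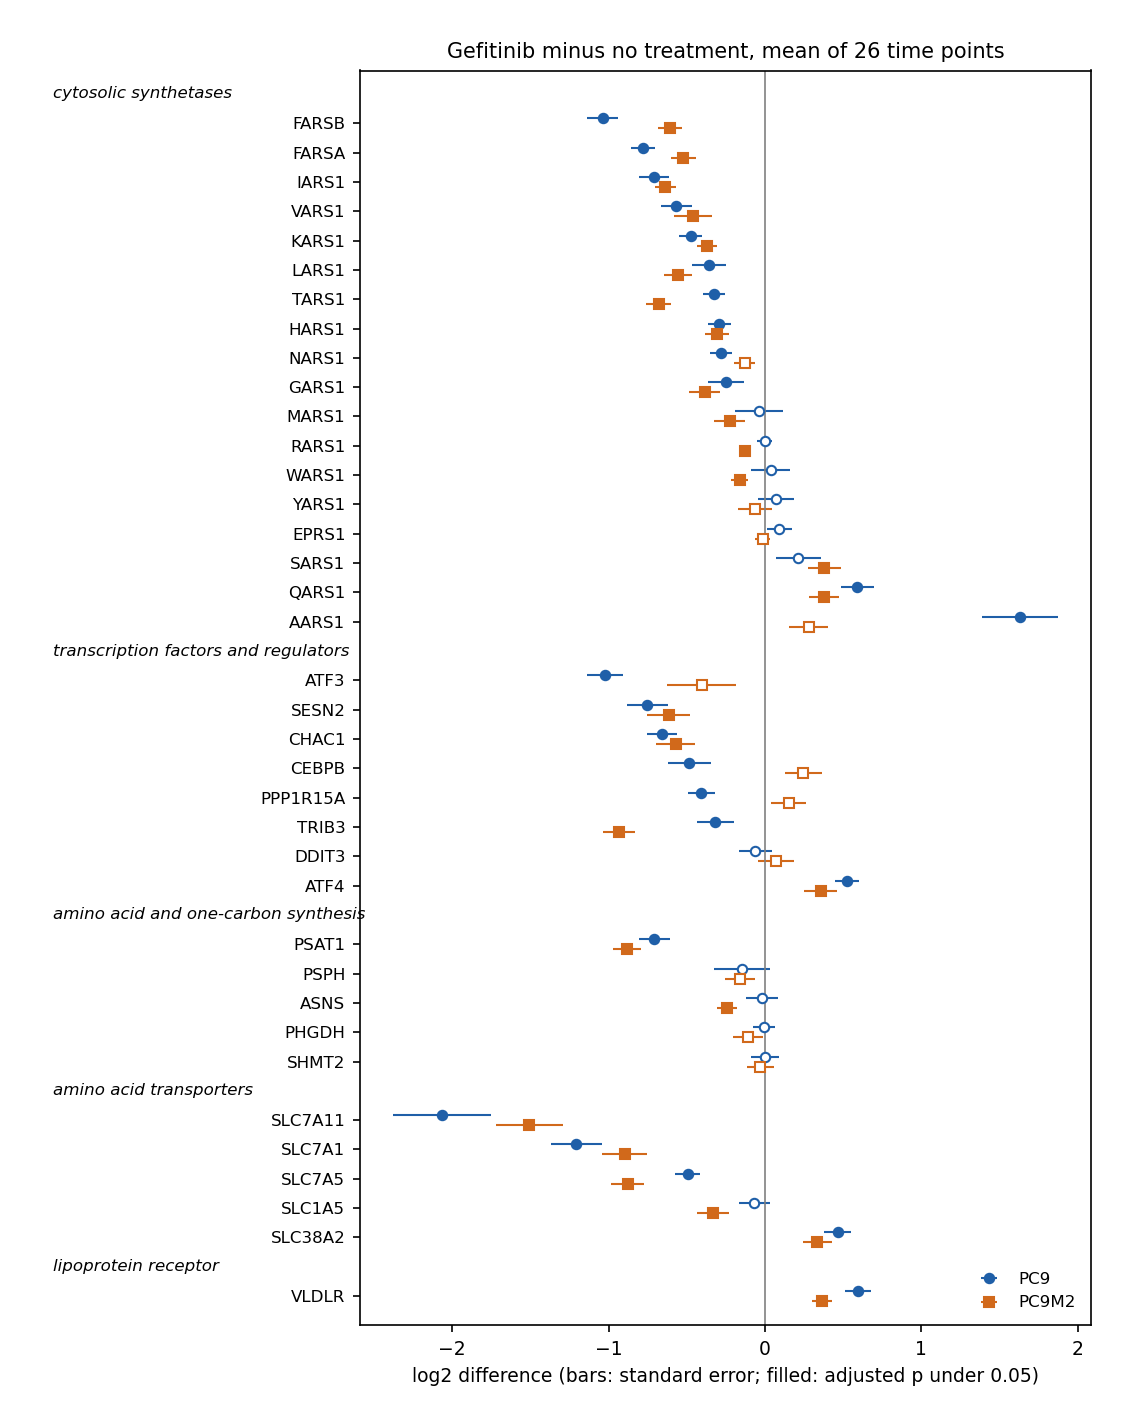
Mean log2 difference between gefitinib and no treatment over 26 time points for each of the 37 genes, by role, in PC9 (circles) and PC9M2 (squares), with bars of 1 standard error and filled symbols for an adjusted p under 0.05. Most filled symbols lie left of 0, SLC7A11 farthest at -2.06 in PC9, and AARS1 in PC9 lies farthest right at 1.63.

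ATF4 had a log2 signal of 13.56 at its lowest, 14.02 at the median and 14.81 at its highest over the 26 untreated PC9 arrays, and of 14.26, 14.62 and 14.89 with gefitinib. The untreated level was highest at 0 h and the ranges overlapped, but gefitinib was higher at 23 of 26 time points, with a mean log2 difference of 0.52 ± 0.08 (SE, adjusted p = 8.22e-07). In PC9M2 the lowest, median and highest values were 13.01, 13.67 and 14.21 without treatment and 13.21, 14.0 and 14.49 with gefitinib. The difference there was 0.36 ± 0.11 (adjusted p = 0.00377), higher at 18 of 26 time points, with the rise in the early part of the course. This call was lost with 9 time points 3 h apart (0.31, adjusted p = 0.132), with the last 13 time points (-0.049, adjusted p = 0.569) and with errors inflated for autocorrelation (adjusted p = 0.146). A second ATF4 probe gave 0.20 in PC9 and 0.14 in PC9M2. It was saturated on all 104 PC9 arrays, so its PC9 value cannot be read as the size of a difference. Of the other members called alike in both lines, 16 were lower, CHAC1, TRIB3 and SESN2 among them. QARS1, SLC38A2 and VLDLR were higher.

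Among the synthetases, 10 of 18 fell and 2 rose with gefitinib in PC9, and 12 fell and 2 rose in PC9M2. Of all genes, 37.2% fell and 35.1% rose in PC9, and 34.2% fell and 32.6% rose in PC9M2. Both chains of phenylalanyl-tRNA synthetase, FARSA and FARSB, fell together. FARSB had lowest, median and highest log2 signals of 13.2, 14.11 and 14.8 without treatment and of 12.17, 13.03 and 14.59 with gefitinib in PC9, with overlapping ranges and its highest treated value at 0 h. Its log2 difference was -1.04 ± 0.10 (SE, adjusted p = 2.84e-10), lower at 25 of 26 time points, and in PC9M2 it was -0.61 ± 0.08 (adjusted p = 6.87e-08), also lower at 25. FARSA differed by -0.78 ± 0.08 in PC9 (adjusted p = 1.14e-09), lower at all 26 time points, and by -0.52 ± 0.08 in PC9M2 (adjusted p = 2.62e-06). IARS1, the isoleucyl enzyme, differed by -0.71 in PC9 and by -0.64 in PC9M2, lower at 24 and at 26 time points. TARS1, the threonyl enzyme, differed by -0.33 ± 0.07 in PC9 and by -0.68 ± 0.08 in PC9M2 (adjusted p = 0.000192 and 1.94e-08), but was saturated on 12 untreated and 3 treated PC9 arrays, so its fall in PC9 is a lower bound.

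AARS1, the alanyl enzyme, moved the other way in PC9. Its log2 signal was 8.80 at the lowest, 9.84 at the median and 11.11 at the highest without treatment, and 9.83, 11.48 and 13.19 with gefitinib. The untreated course started at its highest value at 0 h and was lowest at 15 h, while the treated course was lowest at 3 h and highest at 16 h, so the ranges overlapped through the early arrays. The log2 difference was 1.63 ± 0.24 (SE, adjusted p = 9.19e-07), a 3.1-fold rise at the mean, higher at 22 of 26 time points. It was the only member called higher by 2-fold or more in PC9, where 10.1% of all genes were. SLC7A11, SLC7A1, FARSB and ATF3 were called lower by as much (8.54% of all genes), and in PC9M2 SLC7A11 alone was (3.88% of all genes). In PC9M2 the lowest, median and highest values were 9.65, 10.58 and 11.61 without treatment and 9.62, 10.76 and 11.83 with gefitinib, and the difference of 0.28 ± 0.13 did not pass the test (adjusted p = 0.0543). AARS1 was measured by 1 probe, above background and not saturated on all 208 arrays. QARS1, the glutaminyl enzyme, rose in both lines, by 0.59 ± 0.11 in PC9 and by 0.38 ± 0.10 in PC9M2 (adjusted p = 1.5e-05 and 0.00116 in turn). SARS1, the seryl enzyme, rose in PC9M2 (0.38 ± 0.11, adjusted p = 0.00242), and in PC9 its difference of 0.21 ± 0.14 did not pass (adjusted p = 0.182). EPRS1 and YARS1 passed in neither line, with log2 differences between -0.07 and 0.09.

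**Figure D2:**
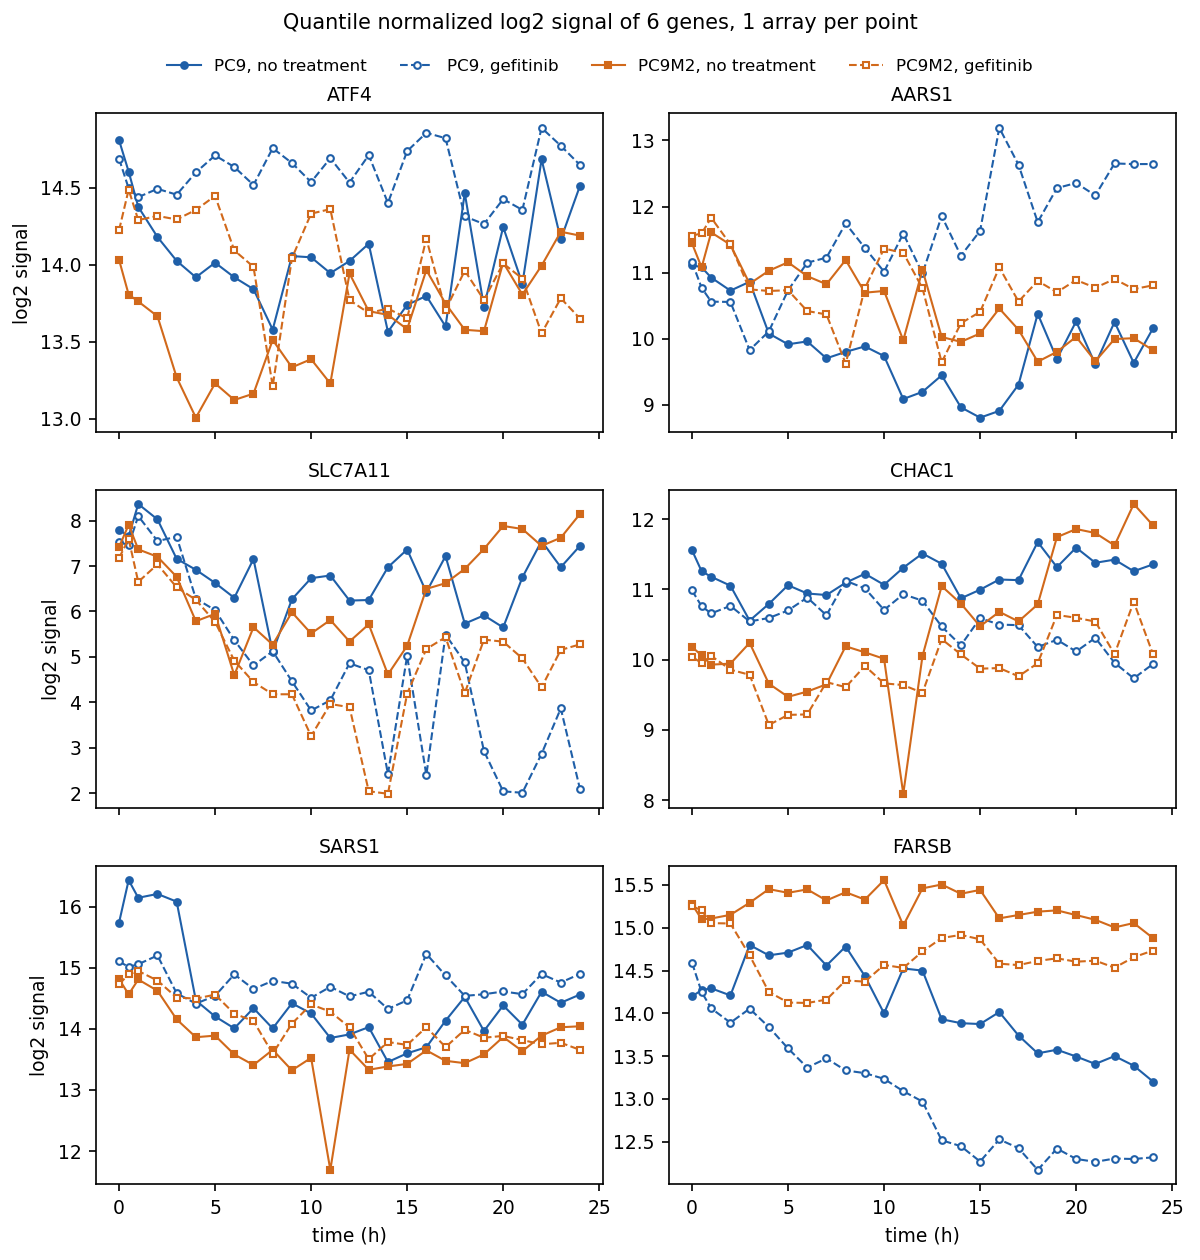
Quantile normalized log2 signal (y axis, 1 array per point) against time in hours for ATF4, AARS1, SLC7A11, CHAC1, SARS1 and FARSB, in PC9 (circles) and PC9M2 (squares), without treatment (solid lines) and with gefitinib (dashed lines). The AARS1 courses of PC9 part after 4 h and reach 10.16 and 12.64 at 24 h, and the SLC7A11 courses of both lines fall with gefitinib.

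Of the 8 transcription factors and regulators, 6 fell and 1 rose with gefitinib in PC9, and 3 fell and 1 rose in PC9M2. The background over all genes was 37.2% lower and 35.1% higher in PC9, and 34.2% and 32.6% in PC9M2. The regulator that rose was ATF4 each time. CHAC1, which degrades glutathione, fell from a median log2 signal of 11.2 to 10.59 in PC9 (-0.66 ± 0.10, adjusted p = 6.57e-07, lower at 25 of 26 time points) and from 10.21 to 9.90 in PC9M2 (-0.57 ± 0.13, adjusted p = 0.000226, lower at 23). SESN2, a leucine sensor that restrains the growth kinase complex mTORC1, differed by -0.75 ± 0.13 in PC9 and by -0.62 ± 0.14 in PC9M2 (adjusted p = 1.12e-05 and 0.000328). SESN2 in PC9M2 lost its call with the first 13 time points (-0.10, adjusted p = 0.642) and with errors inflated for autocorrelation (adjusted p = 0.103). TRIB3, a pseudokinase that restrains ATF4, fell more in PC9M2, by -0.93 ± 0.10 (adjusted p = 6.31e-09, lower at 25 time points), than in PC9, where the difference was -0.32 ± 0.12 (adjusted p = 0.0212). The TRIB3 call in PC9 was lost with the probe of the highest mean (-0.059), the last 13 time points (-0.19), scan day as a random block (-0.30) and errors inflated for autocorrelation (adjusted p = 0.0764). That other TRIB3 probe was saturated on 61 of 104 PC9 arrays. ATF3, a stress-induced repressor, had lowest, median and highest log2 signals of 5.64, 6.76 and 8.26 without treatment and 4.83, 5.65 and 6.46 with gefitinib in PC9, a difference of -1.02 ± 0.12 (adjusted p = 1.24e-08). Its probe was well above background on 7 untreated and 4 treated arrays of PC9M2, out of 26 each. On the other ATF3 probe, above background on all 208 arrays, the log2 difference was -0.72 in PC9 and -0.04 in PC9M2. CEBPB and PPP1R15A, the subunit that directs a phosphatase to eIF2, fell in PC9 by -0.48 ± 0.14 and by -0.41 ± 0.09 (adjusted p = 0.00268 and 0.000138), while their differences of 0.24 and 0.15 in PC9M2 did not pass. DDIT3, the pro-apoptotic factor CHOP, passed in neither line (-0.06 and 0.07).

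Of the enzymes, PSAT1, which carries out the transamination step of serine synthesis, fell in both lines. Its lowest, median and highest log2 signals were 13.66, 14.31 and 16.09 without treatment and 12.47, 13.86 and 14.89 with gefitinib in PC9, and 11.38, 13.08 and 14.56 against 10.66, 11.89 and 14.4 in PC9M2. The log2 differences were -0.71 ± 0.10 in PC9, lower at 25 time points, and -0.88 ± 0.09 in PC9M2, lower at all 26 (adjusted p = 2.78e-07 and 1.57e-09 in turn). PHGDH and PSPH, the enzymes before and after it in the same pathway, and SHMT2, the mitochondrial serine hydroxymethyltransferase, did not pass in either line. For PSPH this rests on the probe used (-0.15 in PC9 and -0.16 in PC9M2). Its other probes differed by -0.60 and -0.67 in PC9 and by -0.42 and -0.39 in PC9M2. ASNS, asparagine synthetase, fell in PC9M2 (-0.24 ± 0.07, adjusted p = 0.00207) and did not pass in PC9 (-0.02 ± 0.10, adjusted p = 0.891). Its probe was saturated on 5 untreated and 1 treated PC9 arrays, and the difference of its effects between the lines did not pass. The PHGDH probe was saturated on 20 of 104 PC9 arrays over all treatments.

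Of the 5 transporters, 3 fell and 1 rose in PC9, and 4 fell and 1 rose in PC9M2. The background over all genes was 37.2% lower and 35.1% higher in PC9, and 34.2% and 32.6% in PC9M2. SLC7A11, the cystine importer that feeds glutathione synthesis, had lowest, median and highest log2 signals of 5.11, 6.86 and 8.37 without treatment and of 2.01, 4.84 and 8.10 with gefitinib in PC9. The treated values were highest at 1 h and lowest at 21 h, and the probe was well above background on 26 untreated but 16 treated arrays. The log2 difference was -2.06 ± 0.31 (SE, adjusted p = 1.29e-06), lower at 24 of 26 time points. In PC9M2 the values were 4.60, 6.56 and 8.15 against 1.98, 5.06 and 7.60, with a difference of -1.51 ± 0.22 (adjusted p = 5.39e-07), also lower at 24 time points. Both other SLC7A11 probes were lower too, by -1.64 and -1.36 in PC9. SLC7A1, the carrier of cationic amino acids, differed by -1.21 ± 0.16 in PC9 and by -0.90 ± 0.14 in PC9M2 (adjusted p = 1.76e-07 and 3.19e-06). These probes were dim, and a background correction with an offset of 50 shrank the PC9 differences to -0.37 for SLC7A11, -0.20 for SLC7A1 and -0.34 for ATF3, still past the threshold.

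SLC7A5, the light chain of the leucine and glutamine exchanger, fell by more in PC9M2 (-0.88 ± 0.11, adjusted p = 2.55e-08) than in PC9 (-0.49 ± 0.08, adjusted p = 4.6e-06). SLC38A2, a sodium-coupled neutral amino acid carrier, rose in both, by 0.46 ± 0.09 in PC9 and 0.34 ± 0.09 in PC9M2 (adjusted p = 2.59e-05 and 0.0022 in turn). The other SLC38A2 probe gave 0.25 in PC9 and 0.03 in PC9M2, so the rise in PC9M2 rests on the probe used. SLC1A5, the glutamine importer, fell in PC9M2 (-0.33 ± 0.10, adjusted p = 0.00553) and did not pass in PC9 (-0.07 ± 0.10, adjusted p = 0.553). VLDLR, a lipoprotein receptor, rose by 0.60 ± 0.08 in PC9 and by 0.36 ± 0.06 in PC9M2 (adjusted p = 3.6e-07 and 1.34e-05). The 7 genes whose promoter window held the element printed above did not move 1 way: in PC9 AARS1 rose, GARS1, IARS1, ATF3 and CHAC1 fell, and ASNS and SLC1A5 did not pass.

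Gefitinib was also compared in the presence of EGF, as both agents against EGF alone. These arrays are separate from those above. In PC9, 31 of the 37 genes passed (11 higher, 20 lower), where 78.9% of all genes did (39% higher, 39.9% lower), and in PC9M2 27 passed (9 higher, 18 lower), where 74.5% did (36.7% higher, 37.8% lower). In all 4 gefitinib comparisons 13 genes fell (HARS1, IARS1, KARS1, TARS1, VARS1, FARSA, FARSB, TRIB3, CHAC1, SESN2, SLC7A11, SLC7A5 and SLC7A1), where 26.5% of all genes did, and QARS1, ATF4, SLC38A2 and VLDLR rose, where 26% of all genes did. ATF4 rose under EGF by 0.73 ± 0.08 in PC9 and by 0.61 ± 0.09 in PC9M2 (adjusted p = 2.4e-09 and 2.76e-07 in turn), higher at 24 of 26 time points in each. AARS1 rose under EGF in both lines, by 1.85 ± 0.21 in PC9 and by 0.56 ± 0.14 in PC9M2 (adjusted p = 5.45e-09 and 0.000874 in turn). The PC9M2 call was lost with 9 time points 3 h apart, with the first 13 time points (-0.038) and with errors inflated for autocorrelation. ASNS was the only member with opposite calls in 1 line, lower with gefitinib alone in PC9M2 and higher under EGF (0.16 ± 0.06, adjusted p = 0.0137). Neither call held without the pairing by time point (adjusted p = 0.418 and 0.568) or with errors inflated for autocorrelation (adjusted p = 0.0595 and 0.127).

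The change with gefitinib was not even over the 24 h. Time was cut into 0 to 6 h, 7 to 15 h and 16 to 24 h, and the last window was tested against the first. In PC9, 16 genes differed between these windows (7 higher late, 9 lower late), where 51.9% of all genes did (26% higher, 25.9% lower). AARS1 had a mean log2 difference of 0.03 ± 0.70 (SD, n = 8 time points) in the first window, 2.01 ± 0.53 (n = 9) in the second and 2.68 ± 0.81 (n = 9) in the last, a late minus early difference of 2.66 ± 0.32 (SE, adjusted p = 1.04e-07 by limma). MARS1, SARS1 and WARS1, the methionyl, seryl and tryptophanyl enzymes, also rose relative to the start, by 1.12, 1.07 and 1.02, and ASNS by 0.88. The SARS1 value was 0.33 and lost its call with 75th percentile scaling (adjusted p = 0.134). For SARS1 the mean difference in the first window was -0.56 ± 0.87 (SD, n = 8). Its untreated log2 signal in PC9 was between 15.74 and 16.44 from 0 to 3 h and 14.47 at 4 h, and 4 of the 26 untreated arrays were saturated. SLC7A11 went from -0.36 to -2.18 and -3.46 on a probe that was well above background on 16 of 26 treated arrays, and its late minus early difference of -3.10 was -0.38 with the background correction with an offset of 50, still past the threshold. SLC7A1 and CHAC1 were lower late too, by -1.31 and -0.88 between the windows.

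In PC9M2 the same contrast called 16 genes as well (2 higher late, 14 lower late), where 39.9% of all genes were called (19.9% higher, 20% lower). AARS1 (0.92 ± 0.25, adjusted p = 0.00416) and CEBPB (0.83 ± 0.25, adjusted p = 0.00926) were higher late. SLC7A11 was lower late by -2.21 ± 0.32 (adjusted p = 3.16e-06; -0.58 with the offset of 50), PPP1R15A by -1.25 ± 0.16 (adjusted p = 4.6e-07) and SESN2 by -1.02 ± 0.29 (adjusted p = 0.00659). ATF4 lost its rise: the mean difference was 0.83 ± 0.38 (SD, n = 8) at 0 to 6 h, 0.36 ± 0.54 (n = 9) at 7 to 15 h and -0.06 ± 0.33 (n = 9) at 16 to 24 h, a late minus early difference of -0.89 ± 0.20 (adjusted p = 0.000927 by limma). In PC9 the ATF4 difference was 0.33, 0.74 and 0.48 over the windows and late and early did not differ past the threshold (adjusted p = 0.527). PPP1R15A in PC9M2 had a mean difference of 0.81 early and -0.44 late, so its mean over the whole course joined opposite parts.

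**Figure D3:**
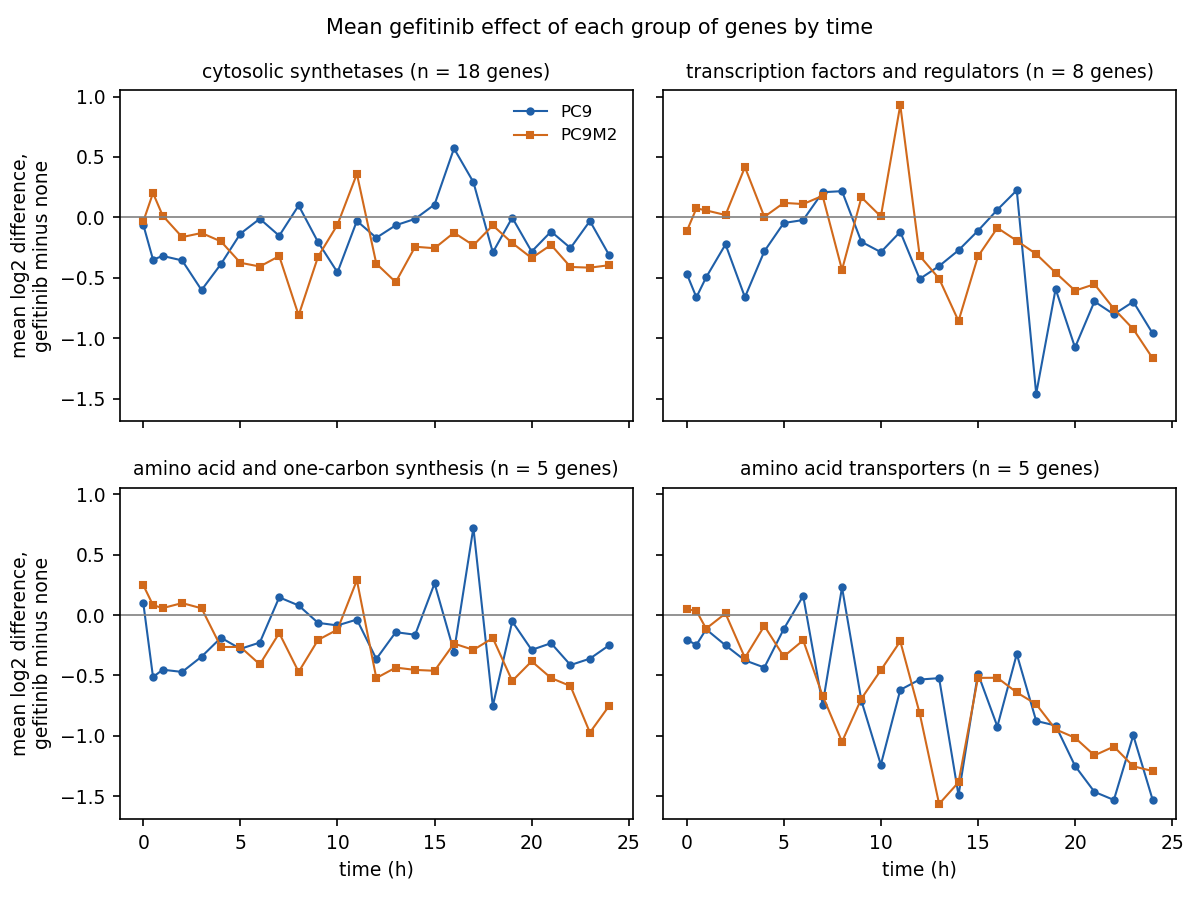
Mean log2 difference between gefitinib and no treatment (y axis) at each time in hours (x axis) over the genes of 4 roles, in PC9 (circles) and PC9M2 (squares). At 24 h the transporters lie at -1.53 (PC9) and -1.29 (PC9M2), the regulators at -0.96 and -1.17, and the synthetases stay closer to 0. The peak of PC9M2 at 11 h, 0.93 in the regulators, is the time point at which the untreated array stood apart.

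The resistant line had lower levels of most members under every treatment. Without treatment, 24 of 37 genes were lower in PC9M2 and 3 were higher, where 37% of all genes were lower and 31.1% higher (68.1% in all). With gefitinib the counts were 25 and 3, where 34.3% of all genes were lower and 30.7% higher (64.9% in all). With EGF they were 27 and 3, against 37% and 32.8% of all genes (69.8% in all), and with both agents 25 and 3, against 36.2% and 31.5% (67.7% in all). Over all 4 treatments, 22 genes, ATF4 on the probe used among them, were lower each time (25.3% of all genes were), and FARSB and PSPH were higher each time (22.6% of all genes were). The mean of the 37 genes, set relative to untreated PC9, was -0.52 ± 0.28 (SD over 26 time points) in untreated PC9M2 on the log2 scale. All of these differences are differences between 2 scan periods as well as between 2 lines. Without the time points at 11 h and 14 to 18 h the untreated counts were again 24 lower and 3 higher.

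**Figure D4:**
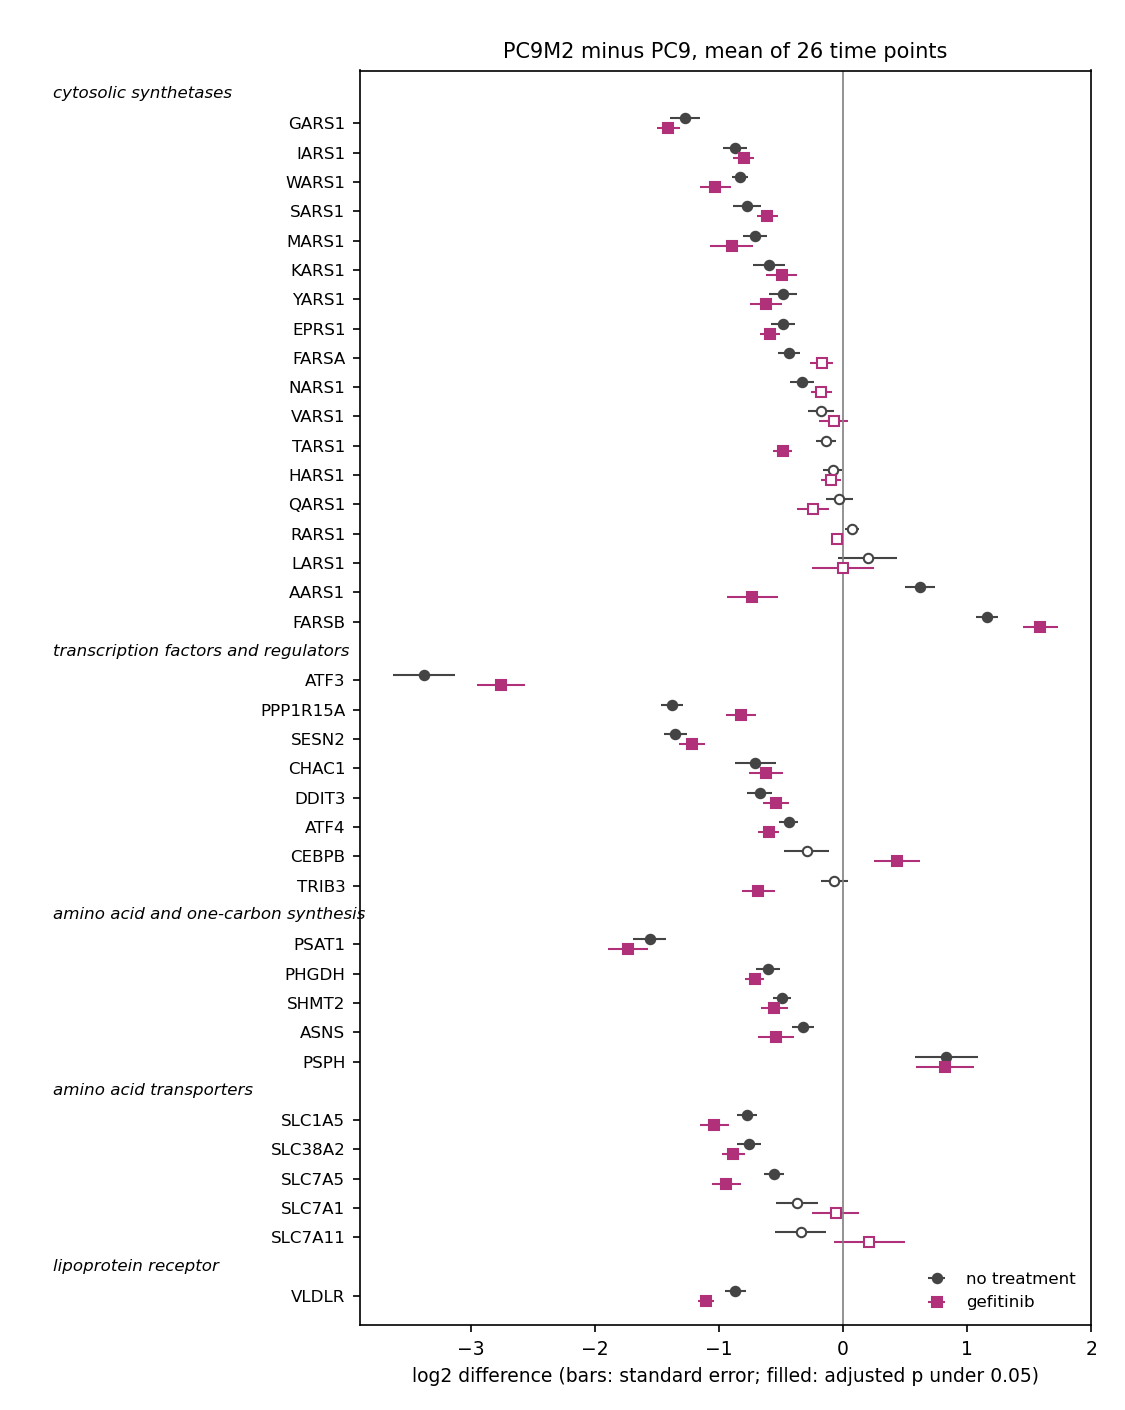
Mean log2 difference between PC9M2 and PC9 over 26 time points for each of the 37 genes, by role, without treatment (circles) and with gefitinib (squares), with bars of 1 standard error and filled symbols for an adjusted p under 0.05. ATF3 lies farthest left at -3.38 and FARSB farthest right, at 1.16 without treatment and 1.59 with gefitinib, and AARS1 lies at 0.62 without and -0.73 with gefitinib.

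ATF3 was lower in PC9M2 by a size that depended on the background correction. Its log2 signal was between 5.64 and 8.26 over the untreated PC9 arrays and between 1.89 and 5.88 over those of PC9M2, where 7 of 26 arrays were well above background, so the ranges overlapped slightly and the lower value is near the detection limit. The log2 difference was -3.38 ± 0.25 (SE, adjusted p = 9.1e-13), lower at all 26 time points. It was -2.84 on the other ATF3 probe, and -0.59 with the background correction with an offset of 50. PPP1R15A differed by -1.38 ± 0.09 (adjusted p = 4.81e-14), SESN2 by -1.35 ± 0.09 (adjusted p = 2.1e-13) and PSAT1 by -1.56 ± 0.13 (adjusted p = 2.37e-11), each lower at all 26 time points. GARS1, the glycyl enzyme, differed by -1.28 ± 0.12 (adjusted p = 3.3e-10), and IARS1, WARS1, SARS1 and SLC1A5 were lower at all 26 time points by between -0.88 and -0.78.

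FARSB had log2 signals of 13.2 to 14.8 in untreated PC9, where 1 array was saturated, and of 14.88 to 15.56 in untreated PC9M2. The log2 difference was 1.16 ± 0.09 (adjusted p = 1.45e-12), higher at all 26 time points. The second FARSB probe gave 0.29, and the partner chain FARSA was lower in PC9M2 (-0.43 ± 0.09, adjusted p = 9.02e-05). The other genes higher without treatment were PSPH (0.83 ± 0.25, adjusted p = 0.00437) and AARS1 (0.62 ± 0.12, adjusted p = 6.96e-05). The 3 PSPH probes gave 0.83, 0.11 and -0.31, so its direction rests on the probe used. AARS1 was lower in PC9M2 under gefitinib (-0.73 ± 0.21, adjusted p = 0.00269). This AARS1 call was lost with 9 time points 3 h apart, with the first 13 time points (0.0485) and with errors inflated for autocorrelation. ATF4 was lower in PC9M2 on the probe used (-0.44 ± 0.08, adjusted p = 1.1e-05), while its second probe, saturated on all PC9 arrays, gave 0.47 and only a lower bound for PC9; no direction between the lines is given for ATF4. LARS1 and TRIB3 did not pass without treatment, and their probes disagreed in sign. The second TRIB3 probe was saturated on 61 of 104 PC9 arrays.

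The gefitinib effects of the 2 lines were set against each other at each time point. The difference of the effects, PC9M2 minus PC9, passed for 9 of 37 genes (4 above 0, 5 below), where 34% of all genes passed (17% above, 16.9% below), and for 4 when the courses were not paired by time point. AARS1 had the largest, at -1.35 ± 0.23 (SE, adjusted p = 4.75e-05, below 0 at 21 of 26 time points), with a rise in PC9 and, in PC9M2, a rise that passed under EGF alone of the 2 comparisons. TRIB3 (-0.61 ± 0.18, adjusted p = 0.00753), SLC7A5 (-0.38 ± 0.13, adjusted p = 0.0242) and TARS1 (-0.35 ± 0.08, adjusted p = 0.000744) were below 0, the TARS1 value with a PC9 fall limited by saturation, and VLDLR rose less there (-0.23 ± 0.08, adjusted p = 0.0289). CEBPB (0.73 ± 0.16, adjusted p = 0.000643), ATF3 (0.62 ± 0.23, adjusted p = 0.0372), PPP1R15A (0.56 ± 0.10, adjusted p = 7.92e-05) and FARSB (0.43 ± 0.09, adjusted p = 0.000459) were above 0. The ATF3 value used a probe near background in PC9M2 and lost its call under 7 of 15 alternatives; the other ATF3 probe gave 0.68. Without the time points at 11 h and 14 to 18 h, 7 genes passed. The remaining 28 genes did not pass, among them SLC7A11 with 0.56 ± 0.22 (adjusted p = 0.0522) and ATF4 with -0.16 ± 0.13 (adjusted p = 0.351).

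The members moved strongly with time even without any agent. A smooth curve of time fitted 31 of 37 genes in untreated PC9 and 34 in untreated PC9M2 past the threshold of limma's F-test, where 66.3% and 67.2% of all genes passed. In PC9 the fitted range of SARS1 was 2.57 and that of GARS1 2.45 on the log2 scale, both highest at 0 h. In PC9M2 the ranges of SLC7A11 (2.94, highest at 24 h) and PSAT1 (2.82, highest at 0 h) were wide. The mean of the 37 genes in untreated PC9 was highest at 0.5 h (0.56 relative to its 24-h mean) and lowest at 14 h (-0.43). In untreated PC9M2 it was highest at 0 h (0.02 relative to untreated PC9) and lowest at 11 h (-1.15), the array that stood apart. The 8 regulators rose again late in untreated PC9, with their highest mean of 0.82 at 20 h.

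**Figure D5:**
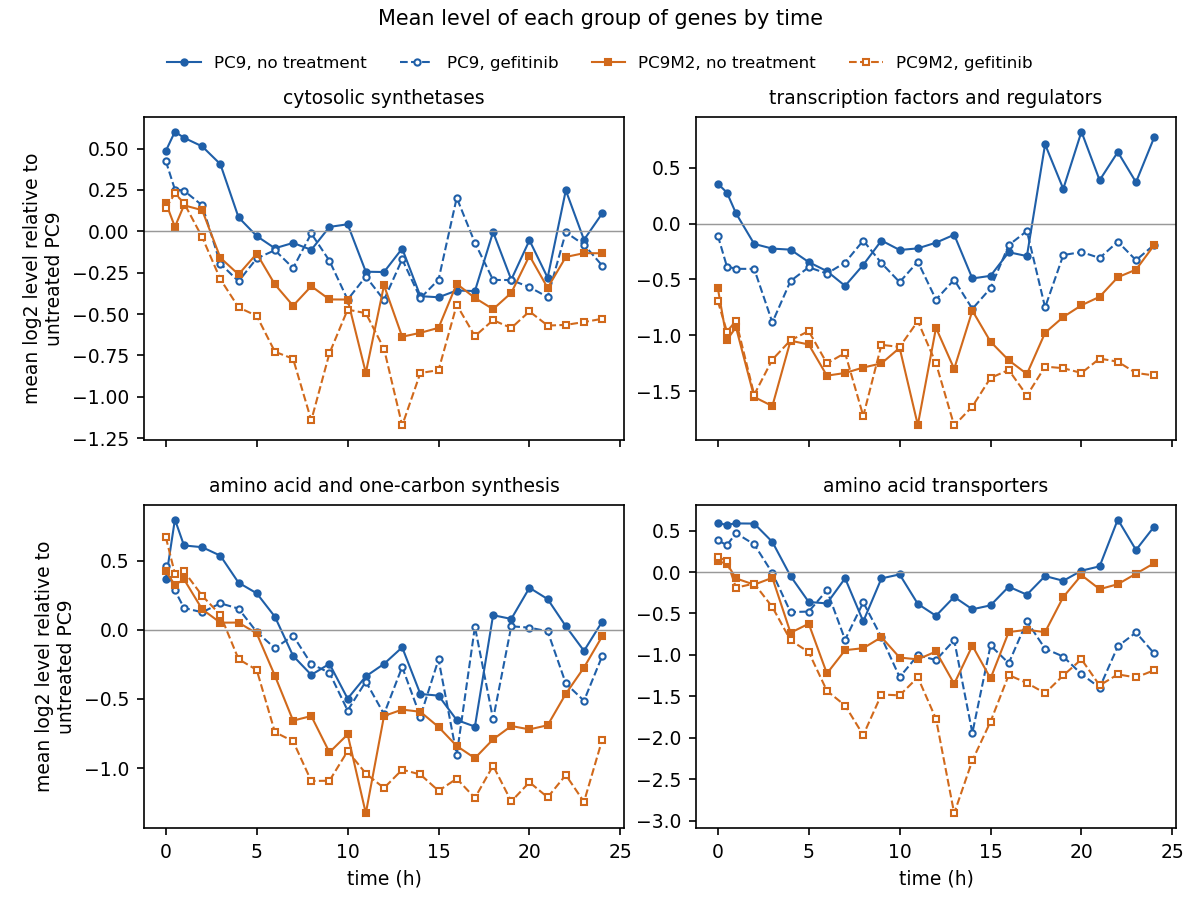
Mean log2 level of the genes of 4 roles relative to the 24-h mean of untreated PC9 (y axis) against time in hours (x axis), in PC9 (circles) and PC9M2 (squares), without treatment (solid lines) and with gefitinib (dashed lines). The synthetases and enzymes start high in all 4 courses and decline, and the regulators lie near -1.04 on average in untreated PC9M2.

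Over the 26 time points of 1 course, the level of a member was compared with the mean of the other 36 by Pearson's r, as a description, since points of a course share slides and neighbours in time. The median r over the 37 genes was 0.551 in untreated PC9, 0.466 with gefitinib, 0.512 in untreated PC9M2 and 0.754 with gefitinib there. SHMT2 followed the others in all 4 courses (0.949, 0.793, 0.923 and 0.96), and RARS1, the arginyl enzyme, ran against them in all 4. AARS1 followed the others in untreated PC9 (r = 0.912) and did not with gefitinib (r = -0.216), while in PC9M2 it went from 0.232 to 0.861. The median r of the members with ATF4 itself was 0.553 in untreated PC9 and 0.0816 in PC9 with gefitinib, 0.308 in untreated PC9M2 and 0.487 in PC9M2 with gefitinib.

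EGF by itself changed few members. In PC9, 7 of 37 genes passed, where 25.6% of all genes did (11.3% higher, 14.3% lower): PPP1R15A (0.25 ± 0.05, adjusted p = 0.000198) and TARS1 (0.12 ± 0.05, adjusted p = 0.0427) rose, and PHGDH (-0.26 ± 0.04, adjusted p = 1.68e-05), PSAT1 (-0.26 ± 0.07, adjusted p = 0.00364), ATF4 (-0.22 ± 0.05, adjusted p = 0.000676), CHAC1 (-0.20 ± 0.04, adjusted p = 0.00045) and WARS1 (-0.18 ± 0.06, adjusted p = 0.0338) fell. In PC9M2, WARS1 (-0.19 ± 0.04, adjusted p = 0.00347) and ASNS (-0.15 ± 0.04, adjusted p = 0.013) fell, where 9.13% of all genes passed (4.09% higher, 5.04% lower). The second ATF4 probe was saturated in PC9 and could not check this fall. No EGF count held when the courses were not paired by time point, with 0 genes in each line. Added to gefitinib, EGF changed 0 of 37 genes in PC9 by limma (10 at an unadjusted p under 0.05), where 0.0452% of all genes passed, and 3 in PC9M2, where 3.21% did (1.07% higher, 2.14% lower): ASNS rose by 0.26 ± 0.06 (adjusted p = 0.0146), VLDLR rose by 0.18 ± 0.05 (adjusted p = 0.0393) and FARSB fell, with a difference of -0.12 ± 0.03 (adjusted p = 0.0203).

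Other genes of the pathway were taken from 4 lists: 17 mitochondrial synthetases, 4 partners of the synthetase complex, 13 genes of eIF2, its kinases, eIF2B and phosphatase, and 22 further ATF4 targets, of which 20 were tested. With gefitinib in PC9, 7 mitochondrial synthetases rose and 8 fell, in PC9M2 6 rose and 7 fell; of all tested genes 35.1% rose and 37.2% fell in PC9, and 32.6% and 34.2% in PC9M2, which is the background of each gefitinib count here. AARS2, the mitochondrial alanyl enzyme, rose with its cytosolic counterpart in PC9 (1.96 ± 0.22, adjusted p = 8.24e-09) and rose in PC9M2 too (1.21 ± 0.17, adjusted p = 2.77e-07), HARS2 rose by 1.60 and 1.01, and MARS2 differed by -2.80 ± 0.18 and by -1.40 ± 0.14 (adjusted p = 1.78e-13 and 6.07e-10). Of the 4 complex partners, 1 rose and 3 fell in PC9 and 2 fell in PC9M2, EEF1E1 and AIMP2 in both lines, by -1.12 and -1.07 in PC9. Of the eIF2 genes, 3 rose and 7 fell in each line, and EIF2AK4, the kinase that senses uncharged transfer RNA, differed by -0.87 ± 0.13 in PC9 and by -0.51 ± 0.10 in PC9M2 (adjusted p = 6.65e-07 and 6.92e-05 in turn).

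Of the further ATF4 targets, 2 rose and 10 fell in PC9 and 4 rose and 12 fell in PC9M2 with gefitinib (all genes: 35.1% and 37.2%, then 32.6% and 34.2%), with a median log2 difference of -0.18 and -0.36. KLHL24, a ubiquitin ligase adaptor, rose by 2.19 ± 0.10 and by 1.84 ± 0.09 (adjusted p = 1.23e-16 and 4.89e-16), higher at all 26 time points in each line, and NUPR1, a stress-induced nuclear protein, rose by 1.65 and 1.33. STC2, a secreted stanniocalcin, differed by -1.65 ± 0.19 and by -1.51 ± 0.21 (adjusted p = 7.43e-09 and 3.38e-07). Between the untreated lines, 15 of the 20 were lower in PC9M2 and 2 higher (all genes: 37% and 31.1%), with FGF21 at -3.45 ± 0.17, NUPR1 at -2.87 ± 0.07 and NIBAN1 at -2.31 ± 0.17, each lower at all 26 time points. Of the mitochondrial synthetases, 10 of 17 were higher and 4 lower in PC9M2 (all genes: 31.1% and 37%), AARS2 by 1.82 ± 0.08 (adjusted p = 9.02e-18).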

How the data were processed

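Total RNA of 208 cultures was hybridised to one-colour 44K arrays. The deposited intensity values are the processed signals of Feature Extraction 10.5.1.1, per the file headers, after background subtraction by the authors' scanner software. The deposited table of intensities, quantile normalized by the authors, served as an alternative after log2 was taken. Control spots were left out, quantile normalization was run over all arrays, log2 was taken after setting a floor of 1, flagged outlier spots (0.0793% of tested values) were removed, and replicate spots were averaged. RefSeq accessions named 24794 of 41000 probes, and the probe with the largest variance stood for its gene. Genes well above background on 13 or more of the 26 arrays of a course were tested, 13263 of 16961. The dynamic range of the scanner limits bright probes, the saturated ones giving only a lower bound, and the number of arrays limits the precision.

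Courses were paired by time point, which within a line is also the slide, and tested with limma 3.58.1 in R 4.3.3 (two-sided, Benjamini-Hochberg over all tested genes, threshold 0.05). Time points of a course depend on each other: the median lag-1 autocorrelation of the members' differences was between -0.148 and 0.49. Change over time was tested with a spline of 4 degrees of freedom. The scripts were tested on simulated data with independent errors. That setting lacks the dependence between time points and so does not check the p-values under it. Alternatives changed the normalization, background correction (normexp on median signals), source table, probe, filter, floor, pairing, time points, autocorrelation, scan day and test; leaving out single time points was added after seeing the data. ATF4 is always named, with the 3 called members of each role that had the largest gefitinib effects, the 4 largest of each sign for the lines and for the difference of effects, the 3 largest of each sign for late minus early and for EGF, and up to 3 genes of each other list; further members complete a role and were chosen after their values were seen. Members and lists were chosen with earlier results of these data known. 1 of the cell type markers checked is not reported here.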

Additional observations from a re-analysis of the deposited data

Results flagged for a closer look

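The gefitinib effect differed between the lines for 9 of 37 members by limma's test of the difference itself, where 34% of all genes passed. The difference is given as the log2 effect in PC9M2 minus that in PC9. It was -1.35 for AARS1, -0.61 for TRIB3, -0.38 for SLC7A5, -0.35 for TARS1 and -0.23 for VLDLR, and it was 0.43 for FARSB, 0.56 for PPP1R15A, 0.62 for ATF3 and 0.73 for CEBPB. The ATF3 value rests on a probe that was near background in PC9M2, and its other probe gave 0.68. The TARS1 probe was saturated on 12 untreated and 3 treated PC9 arrays, so its PC9 effect is a lower bound. The second probes gave 0.55 for FARSB and -0.18 for SLC7A5, so these kept their direction. Those of CEBPB (0.32) and TRIB3 (-0.41) were saturated on 74 and 61 of 104 PC9 arrays and on 0 PC9M2 arrays. They could therefore not check these values. Of 15 alternatives, PPP1R15A and CEBPB passed with the same direction under 14, AARS1 under 13, TRIB3 under 12, FARSB and TARS1 under 11, SLC7A5 under 9 and ATF3 under 8. Because the lines share no slide and no scan day, a part of the scan period in these differences was not tested.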

How the results depend on the processing

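Over 17 counts of members called, 233 of 255 alternatives stayed within 1.5 times of the reported count and 22 did not. Gefitinib against no treatment called 19 to 26 members in PC9 and 19 to 30 in PC9M2 over all alternatives, and the untreated lines differed in 22 to 30. Without the pairing by time point (no replicate block) gefitinib called 24 and 21, and EGF called 0 in PC9 and 0 in PC9M2, EGF added to gefitinib 0 in PC9M2, and the difference of the gefitinib effects 4. With 9 time points 3 h apart, these counts were 1, 0, 0 and 1, and PC9M2 against PC9 under EGF was 18, as it was with scan day as a random block. With the first 13 time points EGF in PC9M2, EGF added to gefitinib in PC9M2 and the difference of the effects had counts of 0, 0 and 2, and with the last 13 they had 8, 6 and 19. With errors inflated for autocorrelation these counts were 0, 1 and 4. EGF in PC9M2 called 1 with 75th percentile scaling and 4 without 11 h, and EGF added to gefitinib called 5 with the probe of the highest mean. Of 1809 values of single genes, 13 changed sign where the reported value had passed the test. Sign changes of reported values that had not passed are not counted here. Under the probe with the highest mean, which is saturated in PC9, ATF4 between the lines was 0.47 untreated, 0.41 with gefitinib (0.4117), 0.41 with EGF (0.4114) and 0.53 with both, and under EGF in PC9 it was 0.013. Under the mean of all probes ATF4 was 0.016 untreated, 0.043 with EGF and 0.047 with both. With the first 13 time points ASNS under both agents against EGF was -0.22 in PC9, AARS1 -0.038 and SESN2 0.067 in PC9M2, and AARS1 between the lines with gefitinib was 0.0485. With the last 13, ATF4 under gefitinib in PC9M2 was -0.049. The cause was not tested. Signal over background limits SLC7A11, SLC7A1 and ATF3, whose fold sizes depend on the background correction, and saturation limits bright synthetase probes in PC9.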

Other observations

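The endoplasmic reticulum chaperones and the XBP1 and ATF6 arm of the unfolded protein response, a list of 17 genes, were measured too. With gefitinib 4 rose and 7 fell in PC9 (of all genes 35.1% and 37.2%), and 6 rose and 2 fell in PC9M2 (of all genes 32.6% and 34.2%). HERPUD1, a part of the degradation complex of the endoplasmic reticulum, had log2 rises of 1.13 (PC9) and 0.92 (PC9M2). The sensor ATF6 rose by 0.79 and 0.60, and EDEM1, which directs misfolded glycoproteins to degradation, differed by -0.97 and -0.55. Between the untreated lines 4 of the 17 were higher and 5 lower in PC9M2 (of all genes 31.1% and 37%), ATF6 by 0.89 and the sensor ERN1 by -0.93. The median log2 difference of the list under gefitinib was -0.11 in PC9 and 0.03 in PC9M2.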
